A study of Mus musculus with 2 samples.

Results

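The core circadian clock genes Arntl, Clock, Npas2, Cry1, Cry2, Per1, Per2, Per3, Nr1d1 and Nr1d2 were followed in liver sections measured by spatial transcriptomics. They are 10 of the 19465 genes in the count tables and were found by their symbols. All 10 had at least 50 UMIs (unique molecular identifiers, each standing for 1 captured molecule) over both sections, and none was dropped. The genes were chosen from measured values, namely their UMIs in each section and along the portal to central axis of the lobule in these same spots. The differences between the sections are for that reason given as a description without a test.

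The study asked what palmitoylation of cysteine 75 of AEG-1, the protein encoded by Mtdh, does in the liver. Livers came from female littermates aged 8 weeks that had received no treatment, 1 AEG-1-WT and 1 AEG-1-C75S mouse, the latter a knock-in made with CRISPR/Cas9 in which cysteine 75 is replaced by serine; the sections are called WT and C75S here, as in the genotype labels. Matings of heterozygous mice gave both genotypes, and the same lobe of the liver was taken from each. The hour at which each liver was collected is not given in the sources used here, so genotype, animal and time of day cannot be told apart.

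The clock of a hepatocyte is a transcriptional loop with a period of about a day. BMAL1 (encoded by Arntl) pairs with CLOCK or NPAS2 and activates the Per and Cry genes and the nuclear receptor genes Nr1d1 and Nr1d2 through E-boxes; PER and CRY proteins then block their own activators, while REV-ERBα and REV-ERBβ, the products of Nr1d1 and Nr1d2, repress Arntl and Npas2 through ROR elements. Transcripts of Nr1d1 and the Per genes therefore peak at other times of the day than those of the activator Arntl in a normal liver.

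The tables held 2316 WT and 2167 C75S spots under tissue, each spot covering several cells. After spots above 50000 UMIs were left out, as in the methods, 2309 spots with 42246988 UMIs and 2163 spots with 41674347 UMIs were kept, and the median depth was 16830 and 18808 UMIs per spot. Barcodes mark positions on the slide, and 1896 of them occurred in both sections. Levels are in CPM, the UMIs of a gene scaled to a section total of 1000000. With 1 section per genotype there is no replicate and no p-value, so every ratio compares these 2 libraries and not the genotypes. Intervals are 95% exact Poisson intervals for levels and exact binomial intervals for log2 ratios unless stated otherwise. They cover counting error only. Each gene is read by its own probes, so levels were set side by side between sections and not between genes. Mtdh itself had 74.4 CPM (71.8 to 77.0) in WT and 73.3 CPM (70.8 to 76.0) in C75S, a log2 ratio of -0.02; a replaced residue need not alter its transcript level, so this does not check the labels.

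The activators were higher in the C75S section. Arntl (ENSMUSG00000055116, chr7:113178471-113314126, GRCm38) encodes the obligate partner in the activating complex. It had 232 UMIs in WT, which is 5.49 CPM (4.81 to 6.25), and 746 UMIs in C75S, which is 17.9 CPM (16.6 to 19.2). Its C75S over WT log2 ratio was 1.70 (1.49 to 1.92), or 3.26-fold, the 9th highest of the 10389 genes with at least 200 UMIs. Npas2 (chr1:39193702-39363240), which encodes the alternative partner of BMAL1, was the scarcest of the 10 in UMIs, with 22 UMIs or 0.521 CPM (0.326 to 0.788) in WT and 85 UMIs or 2.04 CPM (1.63 to 2.52) in C75S. Its log2 ratio of 1.97 (1.28 to 2.72) had the widest interval of the 10. Clock (chr5:76209868-76305603) had 20.1 CPM (18.8 to 21.5) in WT and 26.4 CPM (24.9 to 28.1) in C75S. The log2 ratio of Clock was 0.40 (0.27 to 0.53), much smaller than those of its partner and its paralog.

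The Period genes were lower in the C75S section, and by unequal amounts. Their products form the repressive complex together with the cryptochromes. Per2 (chr1:91415977-91459351) had 1264 UMIs or 29.9 CPM (28.3 to 31.6) in WT and 318 UMIs or 7.63 CPM (6.81 to 8.52) in C75S. Per3 (chr4:150997018-151044707) had 1845 UMIs or 43.7 CPM (41.7 to 45.7) in WT and 468 UMIs or 11.2 CPM (10.2 to 12.3) in C75S. Both were lower by nearly the same amount, with log2 ratios of -1.97 (-2.15 to -1.79) for Per2 and -1.96 (-2.11 to -1.81) for Per3. Among the 6883 genes with at least 1000 UMIs, Per2 had the 4th lowest and Per3 the 5th lowest ratio. In the set of 10389 genes with at least 200 UMIs, used above for Arntl, they were 10th and 11th lowest. Per1 (chr11:69095108-69109965), which also responds to hormonal and stress signals, had 35.4 CPM (33.7 to 37.3) in WT and 17.5 CPM (16.2 to 18.8) in C75S. Its log2 ratio of -1.02 (-1.15 to -0.89) did not reach the intervals of the other Period genes.

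The cryptochromes, the strongest repressors of the activating complex, differed from each other. Cry1 (chr10:85131700-85185054), which in liver typically peaks later than the Per genes, had 276 UMIs or 6.53 CPM (5.78 to 7.35) in WT and 266 UMIs or 6.38 CPM (5.64 to 7.20) in C75S. The levels of Cry1 overlapped, and its log2 ratio was -0.03 (-0.28 to 0.21). Cry2 (chr2:92403646-92434085) had 38.3 CPM (36.5 to 40.3) in WT and 23.6 CPM (22.1 to 25.1) in C75S, a log2 ratio of -0.70 (-0.82 to -0.59).

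The REV-ERB genes gave the most UMIs of the 10. Nr1d1 (chr11:98767932-98775377) had 6157 UMIs or 146 CPM (142 to 149) in WT and 5546 UMIs or 133 CPM (130 to 137) in C75S, a log2 ratio of -0.13 (-0.18 to -0.08). That interval leaves out 0, yet the ratio was only the 2104th lowest of the 6883 genes with at least 1000 UMIs. Nr1d2 (chr14:18204056-18239106) had 112 CPM (109 to 115) in WT and 75.9 CPM (73.3 to 78.6) in C75S, a log2 ratio of -0.56 (-0.63 to -0.50). The closely related receptor genes thus differed in how far apart the sections were. Thra, which overlaps the 3′ end of Nr1d1 on the opposite strand, had 10.7 CPM in WT and 9.45 CPM in C75S (log2 ratio -0.18, -0.38 to 0.02).

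**Figure D1:**
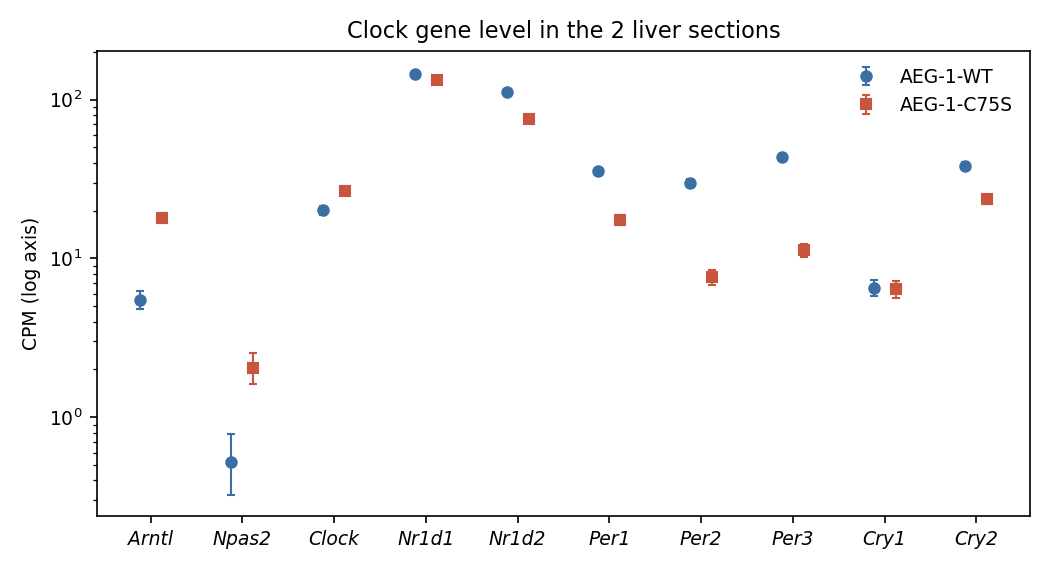
Levels of the 10 clock genes in the WT and C75S sections in CPM on a log axis. Points are the section values and bars are 95% exact Poisson intervals for counting error; Arntl, Npas2 and Clock lay higher in C75S, Cry1 overlapped, and Per2 and Per3 lay furthest below WT.

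Counted by a fold of log2 0.3 in either direction, 3 of the 10 genes were higher in C75S (Arntl, Npas2 and Clock), 5 were lower (Per1, Per2, Per3, Cry2 and Nr1d2), and Cry1 and Nr1d1 were within the fold. Over all 11998 genes with at least 50 UMIs, 7.94% were higher and 16.0% were lower by that fold, and the median log2 ratio was -0.05. Among genes with at least 1000 UMIs, where counting error is smaller, 5.26% were higher and 10.2% lower; of the 7 clock genes at that depth, Clock was higher, Per1, Per2, Per3, Cry2 and Nr1d2 were lower, and Nr1d1 was within the fold. Since the genes were chosen from this contrast, nothing is read from these counts.

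Ratios of one clock transcript to another within the same spots do not depend on how the sections were scaled. Nr1d1 gave 26.5 UMIs for each Arntl UMI in WT (23.3 to 30.4) and 7.43 in C75S (6.89 to 8.04). Over 5 equal bins of spots along the lobule, from periportal to pericentral, this ratio ran from 22.0 to 33.3 in WT and from 6.19 to 10.1 in C75S, so the ranges were apart. Both genes were themselves chosen from these values, and bins of 1 section are not replicates. The remaining pairs were chosen after the values were seen. Per3 gave 7.95 UMIs for each Arntl UMI in WT (6.93 to 9.16) and 0.627 in C75S (0.558 to 0.705). Repressor transcripts were also in different proportions to each other. Nr1d1 gave 4.87 UMIs for each Per2 UMI in WT (4.58 to 5.18) and 17.4 in C75S (15.6 to 19.6). Per1 gave 1.18 UMIs for each Per2 UMI in WT (1.10 to 1.28) and 2.29 in C75S (2.01 to 2.62). Cry2 gave 5.87 UMIs for each Cry1 UMI in WT (5.16 to 6.69) and 3.69 in C75S (3.22 to 4.24). In each of these pairs the section intervals did not overlap, but the bin values of Cry2 to Cry1 did, with 5.31 to 7.23 in WT and 2.39 to 5.85 in C75S. Nr1d1 gave 1.30 UMIs for each Nr1d2 UMI in WT (1.25 to 1.35) and 1.75 in C75S (1.68 to 1.83). Its bin values ran from 1.21 to 1.44 in WT and from 1.51 to 1.94 in C75S. Gene pairs beyond those given here were not examined, so nothing is read from how many pairs lay apart.

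E-boxes, D-boxes and ROR elements are the sites through which clock factors act on each other's genes. RefSeq promoters (GRCm38.p6, from 250 bases before to 50 bases after the start) were found for 9 of the 10 genes; Per2 had no entry. They were searched on both strands for the E-box CACGTG, the E′-box CACGTT, the D-box TTATGTAA and the ROR element cores TAGGTCA and TGGGTCA. Of these 9 genes, with 13 listed promoters, 6 had at least 1 match, while Clock, Npas2 and Nr1d2 had none in this window. The share of all genes with at least 1 match was not counted, so nothing is read from that count. The stretches around the matches are shown as a description. They run 5′ to 3′ along the gene's strand and capitals mark the match, AACGTG being the E′-box read on the other strand.
Per1: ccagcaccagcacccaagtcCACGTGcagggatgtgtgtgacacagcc
Per3: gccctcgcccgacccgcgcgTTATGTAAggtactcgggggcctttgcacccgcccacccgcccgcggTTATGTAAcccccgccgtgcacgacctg
Cry1: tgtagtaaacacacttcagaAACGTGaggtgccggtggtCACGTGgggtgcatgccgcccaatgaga
Cry2: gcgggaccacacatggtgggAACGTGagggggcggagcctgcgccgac
Nr1d1: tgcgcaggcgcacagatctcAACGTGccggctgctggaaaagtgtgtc
Arntl: ggcagaaagTAGGTCAgggacggag

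The Per1 stretch is chr11:69098763-69098810 on the plus strand and the Per3 stretch chr4:151044796-151044890 on the minus strand. Cry1 lies at chr10:85185087-85185153, Cry2 at chr2:92434208-92434255 and Nr1d1 at chr11:98775378-98775425, all on the minus strand. The Arntl stretch, chr7:113207532-113207556 on the plus strand, follows the second start listed for that gene. Per1 and Arntl each have 2 listed starts, and the match was at 1 of them. Counted from the start of transcription, the E-box lies at position -166 in Per1 and -60 in Cry1, the E′-box at -79 in Cry1, -166 in Cry2 and -28 in Nr1d1, and the D-boxes at -205 and -158 in Per3. Per3, with a log2 ratio of -1.96, held 2 D-boxes, the element bound by DBP, TEF and HLF, which 0.938% of the 32851 promoters in the table hold. Per1 (-1.02) held the E-box, found in 7.15% of promoters, and Cry1 (-0.03) held an E-box and an E′-box, the latter in 4.68% of promoters. Cry2 (-0.70) and Nr1d1 (-0.13) held only the E′-box within this window. Whether these elements bear on the ratios was not tested. Arntl held TAGGTCA, found in 2.61% of promoters, and no member held TGGGTCA, found in 3.98%. A match of these letters is a description and does not show that a factor binds there.

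To ask whether the clock genes follow position in the lobule, spots of each section were ordered by the ratio of Cyp2f2, a periportal cytochrome, to Cyp2e1, a pericentral cytochrome, after 1 was added to each count, and divided into 5 bins of 461 to 462 spots in WT and 432 to 433 in C75S. Nr1d1 was the clock gene with the clearest gradient. It had 123, 134, 147, 153 and 172 CPM from the most periportal (bin 1) to the most pericentral (bin 5) in WT, and 131, 115, 127, 135 and 158 CPM in C75S. The log2 ratio of bin 5 over bin 1 was 0.48 (0.36 to 0.60) in WT and 0.27 (0.15 to 0.39) in C75S. Their difference was -0.21 (-0.38 to -0.05), with an interval by normal approximation that covers counting error only. In C75S the lowest level was in bin 2 and not in bin 1. Nr1d2 shared the direction, from 102 to 120 CPM in WT and from 69.0 to 81.6 CPM in C75S, with log2 ratios of 0.24 (0.10 to 0.37) and 0.24 (0.08 to 0.41). These gradients depended on the scaling: with the 20 most abundant genes left out of the totals, they were 0.36 and 0.16 for Nr1d1 and 0.12 and 0.13 for Nr1d2.

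**Figure D2:**
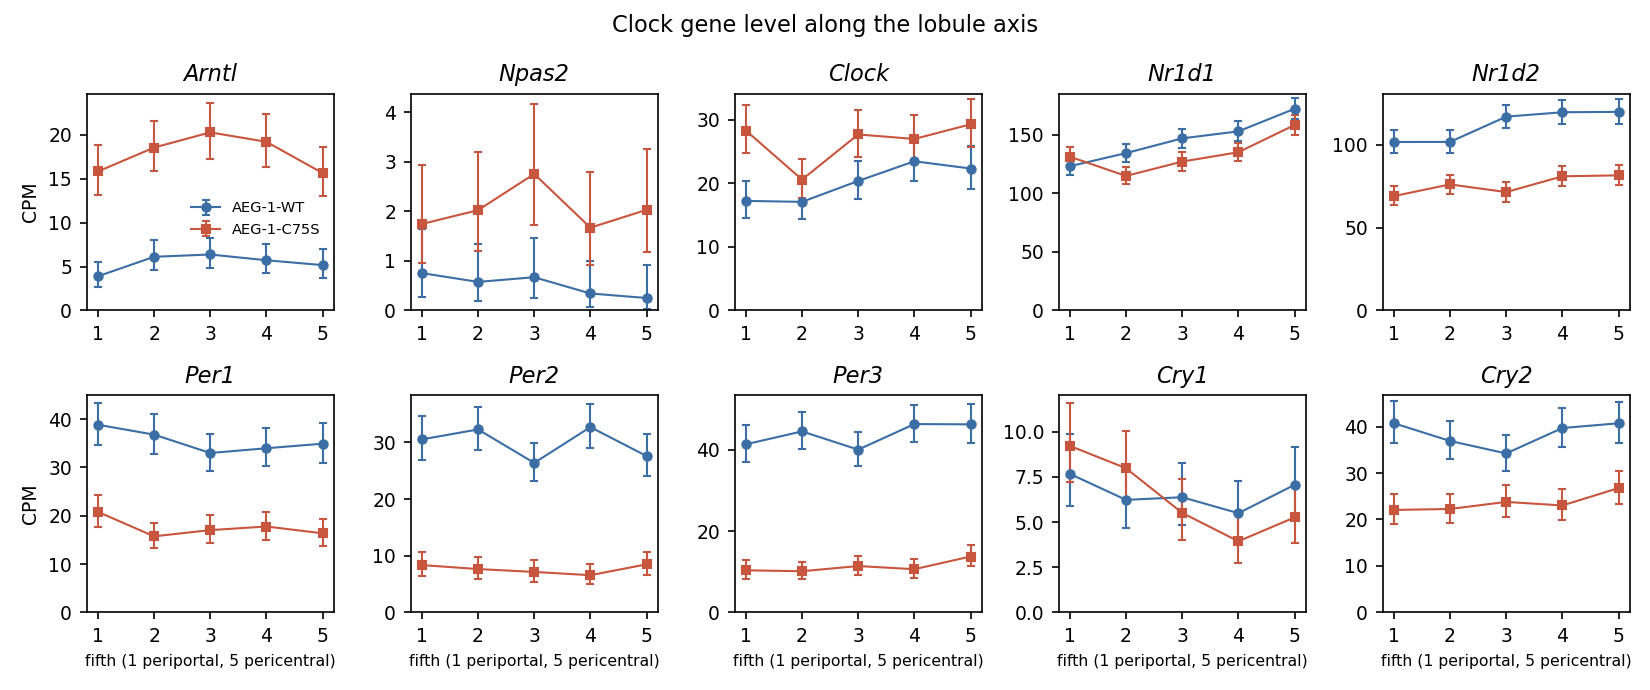
Levels of each clock gene in CPM in 5 equal groups of spots from periportal (1) to pericentral (5), for the WT and C75S sections. Bars are 95% exact Poisson intervals. Nr1d1 and Nr1d2 were higher in group 5 than in group 1 in both sections. The curves of Arntl, Per1, Per2, Per3, Cry2 and Nr1d2 lay apart at every position. The share of all genes with such curves was not counted, so nothing is read from this.

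The other members had small or unshared gradients. Clock had 17.2 CPM in bin 1 and 22.3 CPM in bin 5 of WT, a log2 ratio of 0.37 (0.04 to 0.71), against 0.05 (-0.22 to 0.32) in C75S. Cry1 ran the other way in C75S, from 9.22 to 5.25 CPM or -0.81 (-1.38 to -0.25), with -0.12 (-0.67 to 0.43) in WT. Per1 was -0.15 (-0.39 to 0.09) and -0.35 (-0.68 to -0.01), and Per3 0.16 (-0.06 to 0.38) and 0.41 (-0.01 to 0.83). Of the 7 clock genes with at least 1000 UMIs, 0 passed the fold of 0.3 the same way in both sections, where 10.9% of all 6883 genes did so towards the central vein and 3.04% towards the portal tract. These are values of 1 section each, and no test of zonation is possible from them.

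Along the lobule, 8 of the 10 genes kept the sign of their section difference in every bin, the exceptions being Cry1 and Nr1d1. So did 37.3% of all genes with at least 50 UMIs and 47.1% of those with at least 1000, and since the members were chosen from these same values, nothing is read from the count. Arntl had 3.90, 6.11, 6.37, 5.72 and 5.17 CPM in the bins of WT and 15.8, 18.5, 20.3, 19.2 and 15.6 CPM in those of C75S. The lowest C75S value of Arntl was above the highest WT value, and the log2 ratio ran from 1.60 to 2.02. Per2 had 30.5, 32.3, 26.4, 32.7 and 27.6 CPM in WT and 8.35, 7.64, 7.13, 6.56 and 8.48 CPM in C75S. Per3 had 41.3, 44.5, 40.0, 46.3 and 46.3 CPM in WT and 10.3, 10.1, 11.4, 10.6 and 13.7 CPM in C75S. Neither gene overlapped between the sections in any bin, with log2 ratios from -2.32 to -1.70 for Per2 and from -2.14 to -1.75 for Per3. Per1 ranged from -1.23 to -0.90, Cry2 from -0.88 to -0.53 and Nr1d2 from -0.71 to -0.42, each with intervals below 0 in all 5 bins. The share of all genes with such intervals, or with levels apart in every bin, was not counted. Nothing is therefore read from either. Clock ranged from 0.20 to 0.72, and 3 of its 5 intervals left out 0. Npas2 ranged from 1.21 to 3.01, but rested on 2 to 6 WT UMIs per bin. Cry1 was higher in C75S in bins 1 and 2, at 0.27 and 0.36, and lower in the other bins, down to -0.48, and 0 of its intervals left out 0. Nr1d1 was at 0.09 (-0.03 to 0.22) in bin 1 and between -0.23 and -0.12 elsewhere. Bins of 1 section share an animal and a library and are not replicates.

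**Figure D3:**
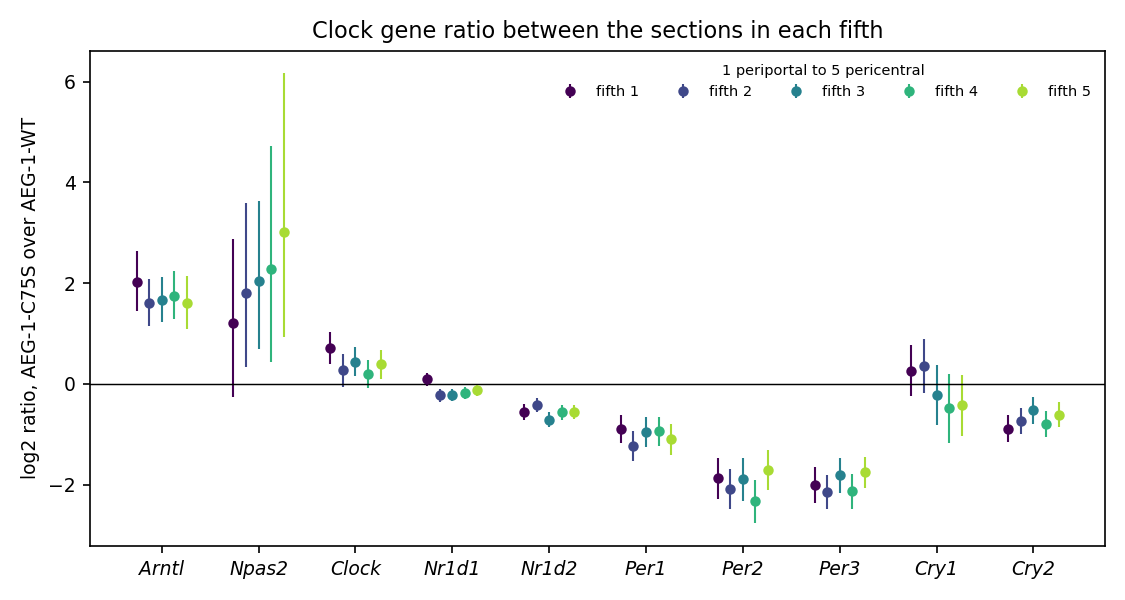
Log2 ratio of C75S over WT for each clock gene in 5 equal groups of spots from periportal (1) to pericentral (5). Bars are 95% exact binomial intervals for counting error; Arntl stayed between 1.60 and 2.02, Per2 and Per3 stayed below -1.70, and Cry1 and Nr1d1 lay on both sides of 0.

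Spots rich in bile duct and connective tissue markers, the top 5% of each section (115 and 108 spots), were compared with all other spots to see whether any clock gene marks that compartment. Spp1, a bile duct gene, had 952 CPM in these spots against 60.1 CPM elsewhere in WT, and 764 against 48.7 CPM in C75S. It was among the markers that ranked the spots, so this is a description and not a check of the choice. The connective tissue markers, also used in the ranking, were enriched to unlike levels in the chosen spots. Col1a1 was at 274 CPM in WT and 56.8 CPM in C75S, and Mgp at 250.4 and 69.7 CPM. The compartment was therefore not alike in the 2 sections, and its part in the values of Per1 and Nr1d1 was not tested. Per1 was higher in these spots in both sections. It had 50.9 CPM there and 34.6 CPM elsewhere in WT (log2 ratio 0.56, 0.27 to 0.83), and 26.5 and 17.1 CPM in C75S (0.63, 0.18 to 1.05). Of the 7 clock genes with at least 1000 UMIs it was the 1 gene past the fold in both sections, as were 9.47% of all genes of that depth. Nr1d1 had 176.5 CPM in these spots against 144 CPM elsewhere in WT (0.29, 0.14 to 0.44), while the ratio was 0.01 (-0.18 to 0.19) in C75S. Per1 was lower in C75S both in these spots and elsewhere.

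From spot to spot the clock transcripts varied little more than counting alone gives. Nr1d1 had a mean of 2.67 UMIs per spot in WT and 2.56 in C75S, with at most 12 and 14 in a spot. The variance over that of a Poisson count at the same depth was 1.14 and 1.11 for Nr1d1, the highest of the 10 in both sections. The lowest values were 0.971 and 0.959, and the median over genes with 500 to 5000 UMIs was 1.01 and 1.02. Nr1d1, with 6157 and 5546 UMIs, lay above that range. Most members gave few UMIs per spot, and at such depth this measure can hide variation between spots. Arntl was sparse in single spots, with a mean of 0.101 and 0.345 UMIs per spot, and Npas2 more so, with 0.00953 and 0.0393; values of single spots are not used for these genes.

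Clock transcription factors beyond the 10 genes were mostly lower in the C75S section. Of 12 such genes, 10 had at least 50 UMIs, of which 1 was higher and 6 lower by the fold of 0.3, beside 7.94% and 16.0% of all genes. The median log2 ratio was -0.41 beside -0.05 over all genes, and the list was made with earlier results of these data known; Rorb had 0 UMIs and Ciart was not analysed here. The D-box activators Dbp and Tef had 223 and 111 CPM in WT and 76.9 and 47.1 CPM in C75S, with log2 ratios of -1.54 (-1.59 to -1.48) and -1.23. Bhlhe41, a repressor that binds E-boxes, was at -1.38, from 4.76 to 1.82 CPM. Rora, which encodes an activator that competes with the REV-ERB proteins at ROR elements, had 85.3 and 87.8 CPM (0.04). Nfil3, which encodes the D-box repressor E4BP4, was the 1 gene higher, with 10.2 and 12.7 CPM (0.32, 0.13 to 0.51). Arntl2, Hlf and Bhlhe40, named after their values were seen, were the other genes lower by the fold, at -1.07, -0.44 and -0.38.

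Enzymes and cofactors that act on the clock proteins had a median ratio close to that of all genes. Of 24 kinases, ubiquitin ligases and cofactors, 23 had at least 50 UMIs. Of these, 0 were higher and 1 was lower by the fold, beside 7.94% and 16.0% of all genes. Among genes with at least 1000 UMIs those shares were 5.26% and 10.2%, and nothing is read from the counts. The median log2 ratio was -0.02 beside -0.05 over all genes, and the list was made with earlier results of these data known. The lower gene was Nono, which encodes a PER-associated RNA-binding protein, with 7.08 and 5.69 CPM (-0.32, -0.57 to -0.06). Csnk1d and Csnk1e, which encode the casein kinases that phosphorylate PER proteins, were at 0.08 and 0.13; both were named for their role after their values were seen.

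Clock-linked outputs of the liver differed in both directions. Of 10 such genes, in a list made with earlier results of these data known, 4 were higher and 4 lower by the fold, beside 7.94% and 16.0% of all genes, with a median log2 ratio of -0.30 beside -0.05, and Nampt and Por, at -0.30 and -0.29, lay just within the fold. Usp2, which encodes a deubiquitinase, had the lowest ratio, from 49.3 CPM in WT to 4.51 CPM in C75S (-3.45). Noct, which encodes the nocturnin phosphatase, had 21.4 and 5.40 CPM (-1.99). Wee1, which encodes a kinase that holds back mitosis, had 9.92 and 2.74 CPM (-1.86), and Alas1, which encodes the rate-limiting enzyme of heme synthesis, had 268 and 159 CPM. The cell cycle inhibitor Cdkn1a had 3.15 and 10.4 CPM (1.72), the G-protein regulator Rgs16 had 108 and 244 CPM (1.18) and the phosphatidate phosphatase Lpin1 had 41.8 and 72.3 CPM (0.79). Elovl3, a fatty acid elongase, was the 4th higher gene, at 0.86 on 81 UMIs.

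**Figure D4:**
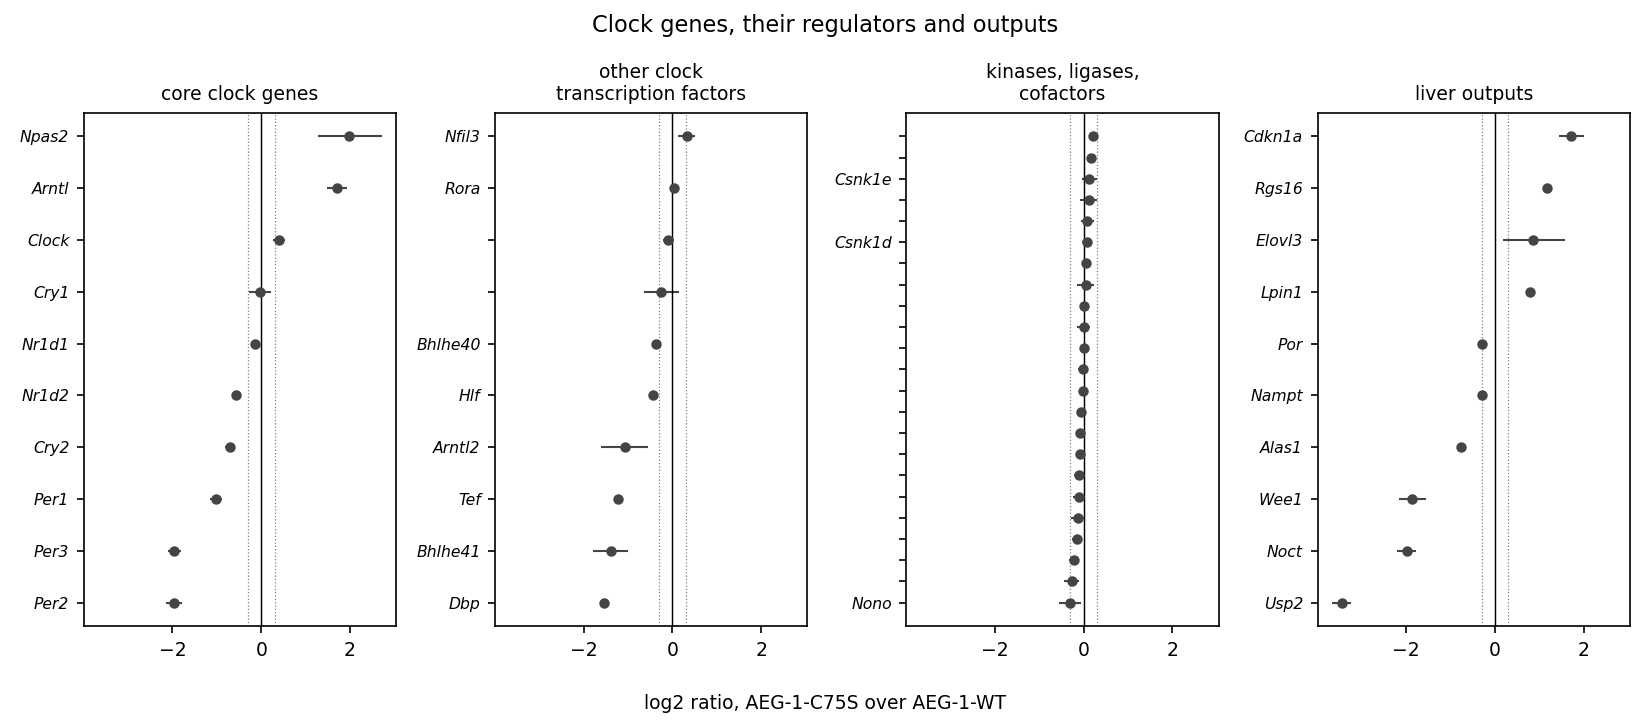
Log2 ratio of C75S over WT for the 10 clock genes, other clock transcription factors, kinases and cofactors of the clock proteins, and liver outputs. Each point is a gene, labelled where the text names it, with its 95% exact binomial interval, and dotted lines mark the fold of 0.3. The kinases and cofactors had a median of -0.02 beside -0.05 over all genes. The other groups spread in both directions.

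Genes whose pattern was most like that of 3 members were taken from the 6876 others with at least 1000 UMIs, by Pearson's r of log2 CPM over the 10 section-by-bin points. For Arntl they were Hist1h1e (0.992), Apoa1 (0.989) and Mreg (0.983), with log2 ratios between the sections of 0.15, 0.50 and 0.48, all smaller than that of Arntl. For Per3 they were Tef, Gpt and Apol9b (each 0.996), with ratios of -1.23, -0.92 and -0.85. For Nr1d1 they were Slc35e1, Lactb and Aspscr1 (0.982, 0.980 and 0.978). The 10 points come from 2 libraries and share their depth and scaling, r does not depend on the size of a difference, and it is given as a description.

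Markers of several other cell types also differed between the sections. All 5 Kupffer cell markers were higher in C75S, 4 of them by the fold, and their summed level was 866 CPM in WT (750 to 959 over the bins) and 1159 CPM in C75S (986 to 1340). They were uneven, with Marco at 1.62, Vsig4, Cd5l and Fabp5 between 0.42 and 0.46, and Clec4f at 0.10. All 4 stellate cell markers were higher, 3 by the fold, with sums of 551 CPM (424 to 631) and 703 CPM (521 to 798). All 5 connective tissue markers were lower by the fold, with sums of 126 CPM (62.0 to 205) and 54.1 CPM (44.0 to 72.9). All 5 bile duct markers were lower, 4 of them by the fold, with sums of 129 and 96.6 CPM. Over all genes with at least 50 UMIs, 7.94% were higher and 16.0% lower by that fold. All 3 red blood cell markers in the tables were lower by the fold, with sums of 611 CPM (463 to 780) and 404 CPM (301 to 600). Of the 5 periportal markers, Gls2 (-0.66) and Pck1 (-0.31) were lower by the fold. Hal (-0.18), Hsd17b13 (-0.04) and Cyp2f2 (0.27) were within it. Of the 3 pericentral markers, Oat (-0.41) was lower by the fold, and Cyp2e1 (-0.07) and Cyp1a2 (-0.15) were within it. Of the 4 sinusoidal endothelium markers, Lyve1 (-0.46) was lower by the fold and the others were within it. Their sums were 387 CPM in WT and 405 CPM in C75S. Of the 5 hepatocyte markers, Apoa1 (0.50) was higher by the fold and the others were within it. Their summed level was 174015 CPM in WT and 178371 CPM in C75S, of which Alb made 127352 and 120952 CPM. No marker in the tables was at 0. With spots matched on the share of Kupffer and stellate markers, an alternative added after the data were seen, the log2 ratio was 1.62 for Arntl, -0.94 for Per1, -1.91 for Per2 and -1.97 for Per3, and that of Nr1d1 was -0.05. Without the duct and connective tissue spots these were 1.73, -1.02, -1.97, -1.94 and -0.11. In spots of several cells, a different number of cells of a type and a different amount of RNA per cell cannot be told apart.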

How the data were processed

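Liver RNA of 1 WT and 1 C75S mouse was captured from formalin-fixed sections on Visium slides with a probe set. The authors made the deposited tables of raw UMI counts per gene and spot with Space Ranger 2.0.1 on mm10 (the submitters' processing notes also name Seurat 4.3.0); the counts are not normalized, and 0 columns belonged to other samples. Spots above 50000 UMIs were left out, leaving 42246988 and 41674347 UMIs. Of 11 repeated gene symbols the first entry was used.

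Counts were summed per section, bin or compartment and divided by the total of that unit (CPM) using pandas 2.3.3 and numpy 2.4.6, and intervals came from scipy 1.17.1, all under python 3.11.15. With 1 section per genotype no count model was fitted, and edgeR 4.0.16 gave only the TMM factors of an alternative. The counting intervals were tested on simulated Poisson counts, which hold no spread between animals or beyond counting. A gene was past the fold at a log2 ratio of 0.3 or more either way, with at least 50 UMIs over both sections, or 1000 for zones and ducts. All members were named, with up to 4 higher and 4 lower genes of each list that had at least 200 UMIs, any gene in a count of 5 or fewer, Mtdh, and the 3 genes most like Arntl, Per3 and Nr1d1 each. From the lists, 2 genes are not reported here. The members and lists were chosen with earlier results of these data known. Alternatives were no spot filter, thinning to 3000 UMIs, other scalings, 3 bins, bins set over both sections together, spots left out, and other folds and minimums.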

Additional observations from a re-analysis of the deposited data

How the results depend on the processing

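No paired analysis was possible because there was 1 section per genotype. Over 9 alternatives for the whole sections, 3 clock genes were higher and 5 lower by the fold each time. Thinning every spot to 3000 UMIs exchanged Clock (0.26, from 137 and 154 UMIs) for Cry1 (0.49, from 44 and 58 UMIs) among the higher genes. The log2 ratio ran from 1.62 to 1.88 for Arntl, from -2.14 to -1.89 for Per2, from -2.17 to -1.81 for Per3 and from -0.13 to -0.05 for Nr1d1, and Cry1 took either sign. For Per1 it ran from -1.02 to -0.74 and for Nr1d2 from -0.56 to -0.41, with -0.74 and -0.41 reached by thinning. The count of clock genes past the fold from periportal to pericentral in both sections was 1 instead of 0, with Nr1d1 added, both with bins set over the sections together and without duct and connective tissue spots. With 3 bins in place of 5, the log2 ratio of Arntl from the most periportal to the most pericentral bin in WT was -0.046 instead of 0.41. The members and the 3 lists held 10, 10, 23 and 10 genes with at least 50 UMIs. Of these genes, 8 were higher and 16 lower by the fold, where the shares of all genes were 7.94% and 16.0%. With a minimum of 1000 UMIs, 3 were higher and 12 lower out of fewer genes. The shares of all genes at that depth were 5.26% and 10.2%. Members and lists were chosen with earlier results known, so nothing is read from these counts. The cause of the changes in this paragraph was not tested, beyond the fewer genes counted with the higher minimum. Several other gradients close to 0 also took either sign. Depth limits Npas2, Cry1 and Arntl in single bins.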
